A study of Rattus norvegicus with 8 samples.

Results

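Genes of the endoplasmic reticulum (ER) stress and unfolded protein response were followed in rat hippocampal CA3 neurons 24 hours after traumatic brain injury (TBI). The 9 genes chosen were Hspa5, Ddit3, Atf4, Xbp1, Calr, Canx, Pdia3, Pdia4 and Dnajc3, and a probe counted for a gene when its gene name on the array, with an ending for predicted or mapped genes removed and upper or lower case ignored, was that of the gene. By this rule 8 of the 9 genes had a probe, each exactly 1 and each with the accession of a RefSeq transcript, and Xbp1 had none, among 18365 gene names on the array. The rule did not use any measured value.

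Neurons were captured by laser and their RNA was put on 8 Agilent arrays of the rat genome, read in 1 colour, 2 for each of 4 groups of Sprague-Dawley rats, which were male according to the methods; no age is given in the sources used here. Naïve rats received no treatment, sham rats had sham injury, and the injured rats had moderate fluid percussion TBI. From the injured rats, dying neurons were those that took up Fluoro-Jade, a fluorescent stain for degenerating neurons, and surviving neurons were neighbouring cells that did not. Each array carried RNA of a pool of neurons from several rats, so that the spread between the 2 arrays of a group is a spread between pools and not between single rats. The surviving and dying pools shared 1 slide and the sham and naïve pools another, and the signals of the 2 slides were extracted under different protocols of the same software. Injury can therefore not be separated from slide or extraction protocol in any comparison of injured with sham neurons, while surviving against dying and sham against naïve were each compared within a slide and a protocol. In pools of cells, fewer cells that carry a transcript and less of it in each cell cannot be told apart.

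The ER folds secreted and membrane proteins, and when unfolded proteins build up in it, the sensors IRE1, PERK and ATF6 set off the unfolded protein response. Their signals slow translation through phosphorylation of the initiation factor eIF2alpha, raise the translation of the transcription factor ATF4, splice the mRNA of XBP1 and release the transcription factor ATF6, and they induce chaperones, folding enzymes and the machinery that sends misfolded proteins to degradation. Prolonged activation is known for induction of the death-associated factor CHOP, the product of Ddit3, and neurons are known to show ER stress after ischaemia and trauma. The arrays measured mRNA abundance alone, and neither splicing of Xbp1 nor phosphorylation was measured.

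Signals are given as the log2 of the signal of a probe divided by the median signal of its array, called the scaled signal, and differences are differences of its group means, with 2 arrays per group. Each probe has its own brightness, so the signals of different genes do not give their relative abundance. The probes of 6 of the 8 exceeded background well on all 8 arrays, that of Dnajc3 did so on 6, and that of Canx on 0. None of the 8 probes was saturated on any array.

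Of the transcription factors, Atf4, the activator translated under PERK signalling, had a scaled signal of 8.37 and 8.67 for naïve, 9.21 and 9.04 for sham, 8.89 and 8.90 for surviving and 7.54 and 8.62 for dying pools. Both dying pools and the 2 surviving pools lay below both sham pools, and the dying pools were 2.13-fold apart (SD 0.77, n = 2). The order of the group means was sham, surviving, naïve and dying, in which naïve and dying overlapped, since dying pool 2 lay between the naïve pools. Dying minus sham was −1.05 (95% confidence interval −2.18 to 0.09) and did not pass the threshold (limma, adjusted p = 0.114), and surviving minus sham was −0.23 (adjusted p = 0.764). The sign of the surviving value was positive in 5 of 6 other ways of processing the arrays and that of the dying value in 1, so no direction can be given for Atf4 against sham. Without dying pool 1 the dying value was −0.50 (adjusted p = 0.417), and without dying pool 2 it was −1.59 and passed (adjusted p = 0.0232), as the value of all pools did with a trended and robust spread (adjusted p = 0.047). Surviving minus dying was 0.82 (adjusted p = 0.373), with the same sign in all 6, and it was 0.27 without dying pool 1 and 1.36 without dying pool 2, neither past the threshold.

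Ddit3, whose product CHOP is a transcription factor downstream of ATF4, had a scaled signal of 4.59 and 5.05 for naïve, 5.34 and 5.04 for sham, 4.33 and 4.10 for surviving and 3.75 and 3.58 for dying pools. Both surviving and both dying pools lay below all 4 uninjured pools, both dying pools lay below both surviving pools, and naïve and sham overlapped. The means were 4.82 ± 0.33 in naïve, 5.19 ± 0.21 in sham, 4.22 ± 0.16 in surviving and 3.66 ± 0.12 in dying neurons (SD, n = 2). The mRNA of Ddit3 was 2.88-fold lower in dying than in sham neurons, a difference of −1.53 (SE 0.43, 95% confidence interval −2.52 to −0.53, adjusted p = 0.0237). The sign was the same in all 6 other ways of processing, with values from −1.52 to −0.41, but the call was lost in all 6. It was also lost without sham pool 1 (adjusted p = 0.154), without sham pool 2 (adjusted p = 0.0894) and with only the 4 arrays compared (adjusted p = 0.0599). Surviving minus sham was −0.97 (adjusted p = 0.144), with the opposite sign in 3 of the 6. For Xbp1, the factor activated by splicing, no value is given, since no probe carried its name; probes named by an accession alone were not searched for it.

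Hspa5 encodes BiP, the ER chaperone of the Hsp70 family that binds the sensors and is released from them by unfolded proteins. Its scaled signal was 9.46 and 9.81 for naïve, 10.48 and 10.22 for sham, 8.59 and 8.62 for surviving and 8.44 and 8.18 for dying pools. The 4 injured pools lay below the 4 uninjured pools with a clear gap, and the order of the means was sham (10.35 ± 0.18), naïve (9.63 ± 0.25), surviving (8.61 ± 0.02) and dying (8.31 ± 0.19; SD, n = 2). Between surviving and dying the difference was 0.30 and did not pass the threshold (95% confidence interval −0.68 to 1.28, adjusted p = 0.721).

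Hspa5 was 3.36-fold lower in surviving than in sham neurons, a difference of −1.75 (SE 0.42, 95% confidence interval −2.72 to −0.77, adjusted p = 0.0295). It was 4.13-fold lower in dying than in sham neurons, with a difference of −2.05 (SE 0.42, 95% confidence interval −3.02 to −1.07, adjusted p = 0.00778). Both comparisons used the same 2 sham pools. Of the probes tested in surviving minus sham, 15.0% had a value lower than that of Hspa5, and 23.0% did so in dying minus sham.

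The size of the Hspa5 difference depended on how the arrays were scaled. Before scaling, its signal was 19151 and 20361 for naïve, 23566 and 19609 for sham, 20169 and 18941 for surviving and 6665 and 15224 for dying pools. The median of all probes was 27.2 and 22.7, 16.5 and 16.4, 52.2 and 48.2, and 19.2 and 52.6 on the same arrays. So the unscaled signal of Hspa5 in surviving neurons was like that in sham, while the median of those arrays was higher. The faintest probe marked well above background lay at log2 −0.30 and −0.15 from the sham medians. It lay at −2.30 and −1.63 from the surviving and at −1.35 and −2.07 from the dying medians. The sham medians were thus close to the detection limit. With the median of bright probes, surviving minus sham was −0.78 (limma, adjusted p = 0.119). The unscaled signal of Atf4, in contrast, was 9755 and 8626 in sham and 24809 and 23090 in surviving neurons. Under 6 other ways of processing, the Hspa5 value stayed negative, from −1.70 to −0.55 for surviving and from −2.25 to −1.04 for dying minus sham, and it passed the threshold in 1 of 6 and in 5 of 6. The surviving call was also lost when any 1 of its 4 pools was left out, with adjusted p of 0.201 and 0.13 without sham pools 1 and 2 and 0.156 and 0.19 without surviving pools 1 and 2, and the dying call was lost without sham pool 1 (adjusted p = 0.0761). With the replicate block, which treats pools of the same number as paired, surviving minus sham had an adjusted p = 0.0588 over all probes tested.

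A scale within each array, chosen after the data were seen, needs no scaling between arrays. On it the log2 signal of Hspa5 was set against the mean of the 5 other genes measured well over background on every array, Ddit3, Atf4, Calr, Pdia3 and Pdia4. Relative to the mean of the sham pools, this was −0.22 and −0.24 for naïve, 0.05 and −0.05 for sham, −1.42 and −0.95 for surviving and −0.53 and −1.28 for dying pools. All 4 injured pools lay below all 4 uninjured pools, and which of the 2, Hspa5 or the mean of the 5, differed between the groups cannot be told from this scale.

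**Figure D1:**
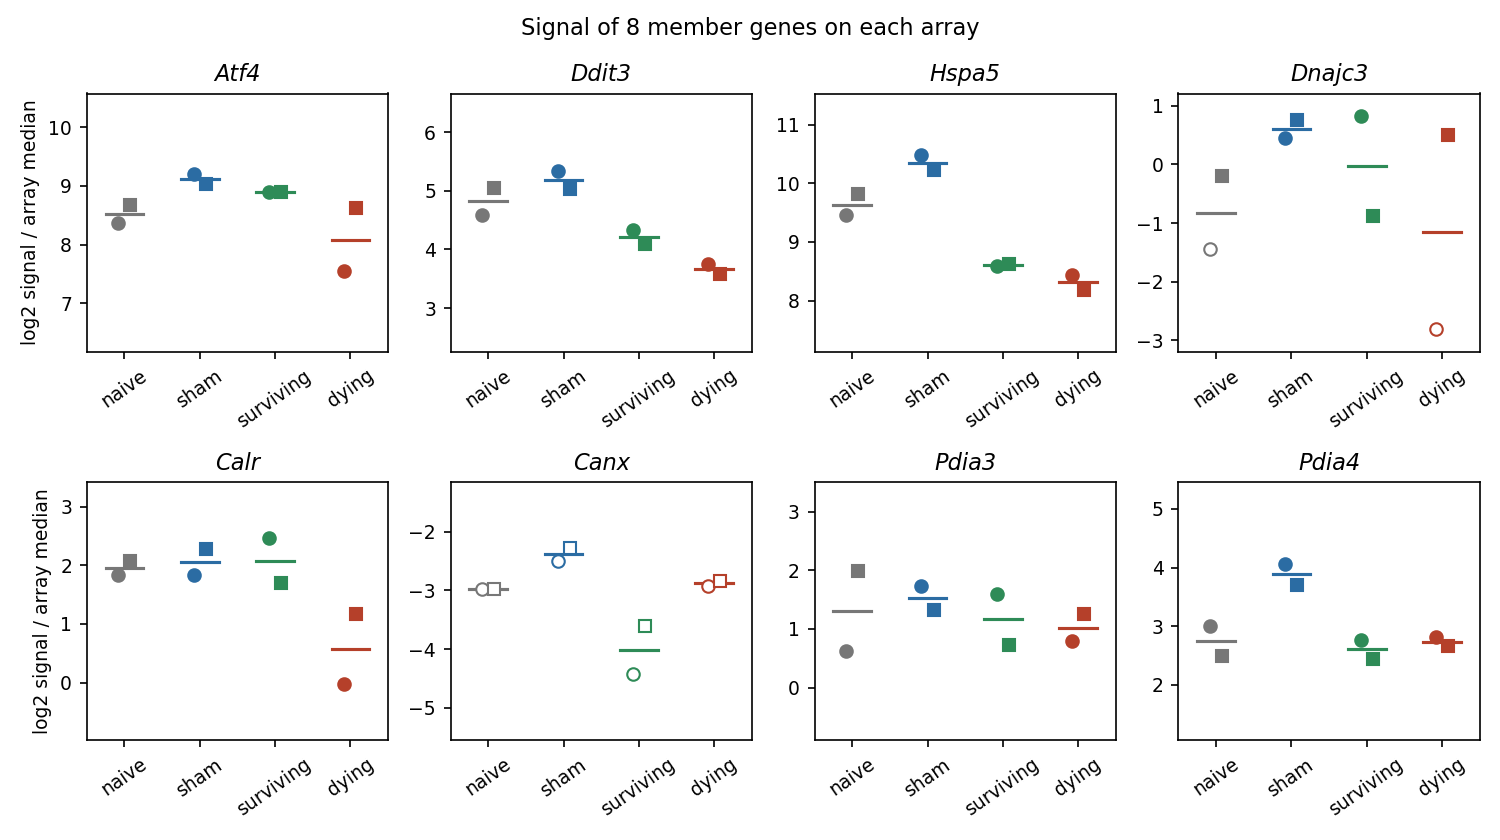
Scaled signal (log2 of signal over the array median, vertical axis, all panels spanning the same range of log2 units) of the 8 genes with a probe in each of the 4 groups; circles are pool 1, squares pool 2, open symbols pools where the probe was not well above background, and lines group means. The Hspa5 panel shows the injured pools between 8.18 and 8.62 and the uninjured pools between 9.46 and 10.48, while the Dnajc3 panel shows the dying pools at −2.81, an open symbol, and 0.51.

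Dnajc3 encodes p58IPK, an ER protein with J domains that works with BiP and inhibits eIF2alpha kinases. Its scaled signal was −1.44 and −0.20 for naïve, 0.45 and 0.75 for sham, 0.83 and −0.88 for surviving and −2.81 and 0.51 for dying pools, with naïve pool 1 and dying pool 1 not well above background. As dying pool 1 was at background, no fold between the dying pools is given. No comparison passed the threshold, and dying minus sham was −1.74 with a 95% confidence interval of −4.17 to 0.69. That value rested on dying pool 1, since it was −0.08 without that pool (adjusted p = 0.948), and without dying pool 2 the group is at background and no size is given.

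Calr and Canx encode calreticulin and calnexin, the lectin chaperones that hold newly made glycoproteins in the ER. The Calr signal was 1.83 and 2.07 for naïve, 1.83 and 2.27 for sham, 2.47 and 1.69 for surviving and −0.03 and 1.17 for dying pools. Both dying pools lay below the other 6, which overlapped with each other. Surviving was 2.85-fold higher than dying, a difference of 1.51 (SE 0.56, 95% confidence interval 0.22 to 2.80) that did not pass the threshold (limma, adjusted p = 0.181). Dying minus sham was −1.48 and did not pass either (adjusted p = 0.0591). Without dying pool 2, the surviving minus dying value was 2.11 and passed (adjusted p = 0.0361), as did dying minus sham (−2.08, adjusted p = 0.0172), and dying pool 1 then stood alone for its group. Without dying pool 1 they were 0.91 (adjusted p = 0.489) and −0.88 (adjusted p = 0.25). Dying minus sham also passed among probes that exceeded background well on each of the 4 arrays (adjusted p = 0.0424). The sign of both differences was the same in all 6 other ways of processing, and both passed in 0 of them. Their values lay from 0.94 to 1.64 for surviving minus dying and from −1.11 to −0.32 for dying minus sham. Canx lay between −4.43 and −2.27 on the 8 arrays and was not well above background on any of them, so it was not tested and no fold is given.

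The disulfide isomerases Pdia3 (ERp57, the partner of calreticulin and calnexin) and Pdia4 (ERp72) form and rearrange disulfide bonds in the ER. Pdia3 lay between 0.62 and 1.99 on all arrays, with the naïve pools (SD 0.97) at both ends, and the pools of the 4 groups interleaved, except that both dying pools lay below both sham pools. Its differences were within 0.51 of 0 in all 4 comparisons, and the 2 pools of a group were 1.33-fold to 2.58-fold apart. Pdia4 was at 3.0 and 2.49 for naïve, 4.07 and 3.71 for sham, 2.77 and 2.45 for surviving and 2.81 and 2.66 for dying pools. The 2 sham pools stood above the 6 others, and naïve, surviving and dying pools interleaved. Pdia4 was 2.43-fold lower in surviving than in sham neurons (difference −1.28, 95% confidence interval −2.30 to −0.26, adjusted p = 0.0774) and 2.23-fold lower in dying (difference −1.15, adjusted p = 0.0636), and neither passed the threshold. With only the 4 arrays compared, surviving minus sham passed (adjusted p = 0.0267), and among probes that exceeded background well on each of the 4 arrays, dying minus sham passed (adjusted p = 0.0493). Under the 6 other ways of processing, the values lay from −1.23 to −0.21 in surviving and from −0.88 to −0.15 in dying minus sham. They passed in 0 of these. Sham was 2.21-fold higher than naïve (difference 1.15, 95% confidence interval 0.16 to 2.13, adjusted p = 0.882).

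Dying neurons were compared with sham neurons, which lay on the other slide. Of 7 genes tested, 2 passed the threshold, Hspa5 and Ddit3, both lower in dying neurons, while 44.0% of all 25628 probes tested passed, 29.0% lower and 15.1% higher. Both dying pools lay below both sham pools for 6 of 7 genes, against 45.3% of all probes, and above them for 0, against 30.8%. The median difference of the 7 was −1.48, that of all probes tested −0.46 and that of probes with a RefSeq transcript −0.84. All 7 were below the median of all probes and 6 below that of the RefSeq probes. The share of the 7 that passed was thus not above that of the array as a whole. Both calls were lost without sham pool 1, and that of Ddit3 also without sham pool 2. Without dying pool 2 more of the genes passed, among them Dnajc3 with its remaining dying pool at background. The share of all probes is not given for these fits, so they cannot be set against the array.

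Surviving neurons were compared with the same sham pools, again across slides. Of 7 genes, 1 passed, Hspa5, lower in surviving neurons, against 18.9% of 26909 probes, 12% lower and 6.82% higher. Both surviving pools lay below both sham pools for 4 of 7 genes, Hspa5, Ddit3, Atf4 and Pdia4, against 48.8% of all probes, and above them for 0, against 28.0%. The median difference was −0.62 for the 7 genes, −0.43 for all probes and −0.40 for RefSeq probes, and 4 of the 7 were below either median. The count was 0 in 5 of 6 other ways of processing, with the replicate block, which takes pools of the same number as paired, and without any 1 pool, and it was 2 with only the 4 arrays compared.

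Surviving and dying neurons, told apart by their stain, were compared within 1 slide. Of 7 genes, 0 passed the threshold (limma), as did 0% of the 27393 probes tested, and 1, Calr, had an unadjusted p under 0.05, against 21.5% of the probes. Both surviving pools lay above both dying pools for 4 of 7 genes, Hspa5, Ddit3, Atf4 and Calr, against 30.0% of all probes, and below them for 0, against 21.7%. The median difference of the 7 was 0.56, that of all probes 0.14 and that of RefSeq probes 0.38. The methods filter for replicates that agree within 50% and for ratios to sham of over 2 or under 0.5. Here such a filter was set on the ratio of surviving to dying neurons instead, over 2-fold in either direction with replicates within 1.5-fold of each other in both groups, and 0 of the 6 genes measured on all 4 arrays met it, against 4.94% of 21262 probes. Of these 6, 3 had replicates that close, Hspa5 with a ratio of surviving to dying means of 1.23, Ddit3 with 1.47 and Pdia4 with 0.921. The dying pools of Atf4 and of Calr were over 2-fold apart, with dying pool 1 the lower.

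Sham and naïve neurons were also compared within 1 slide. Of 7 genes, 0 passed (limma), as did 0% of 20679 probes, and 1, Pdia4, had an unadjusted p under 0.05, against 4.82% of the probes. Both sham pools lay above both naïve pools for 4 of 7 genes, Hspa5, Atf4, Pdia4 and Dnajc3, against 38.0% of all probes, and below them for 0, against 4.95%. The median difference was 0.61 for the 7 genes, 0.37 for all probes and 0.41 for RefSeq probes. The sham pools are the reference of both comparisons with injured neurons, and the 4 genes that lay higher in sham than in naïve enter there with the higher of the 2 uninjured levels. Against the naïve pools, which were not tested against injured neurons here, the mean of Hspa5 was 9.63 and those of the injured groups 8.61 and 8.31, while that of Pdia4 was 2.74 in naïve, 2.61 in surviving and 2.74 in dying neurons.

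**Figure D2:**
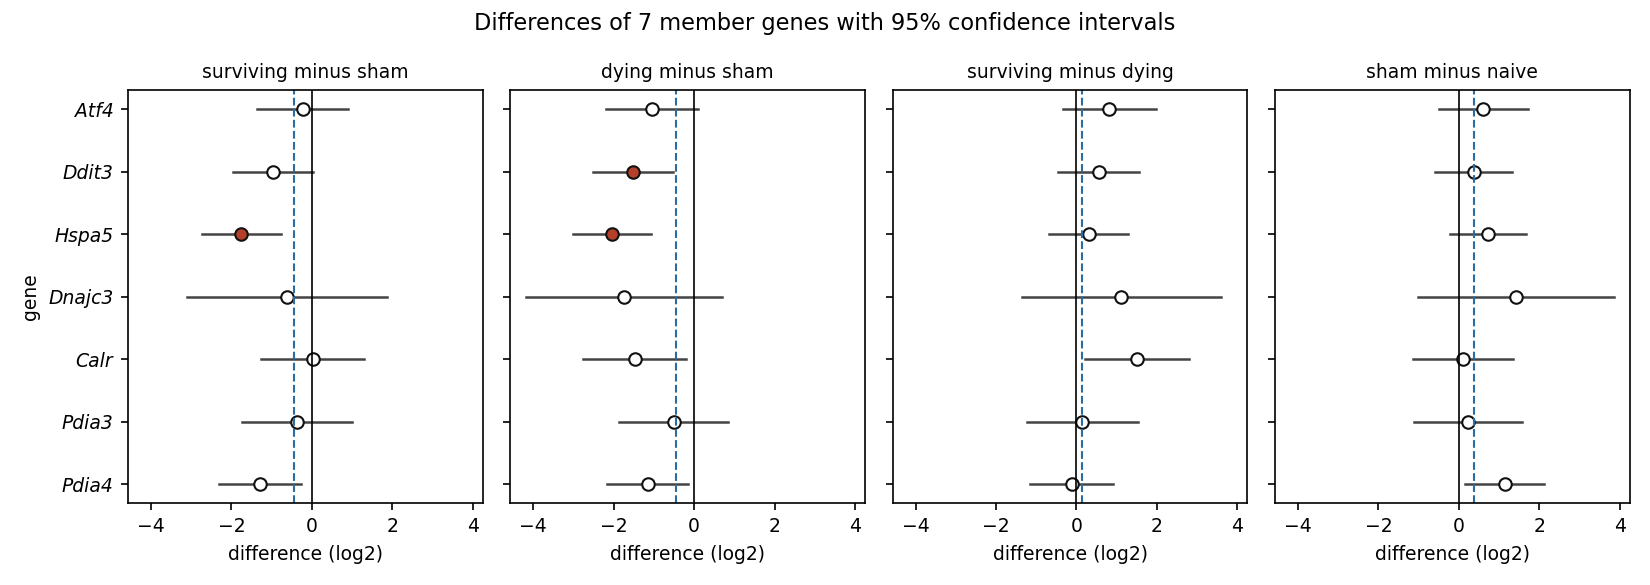
Differences of the 7 tested genes (log2, horizontal axis) in 4 comparisons, with points for the estimate, bars for the 95% confidence interval (n = 2 arrays per group), red points for those past the threshold and a dashed line for the median difference of all probes tested. Hspa5 at −1.75 and −2.05 and Ddit3 at −1.53 are the red points, and the dashed line stands at −0.43, −0.46, 0.14 and 0.37 from left to right.

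The differences from sham depended on the choice of scaling. The 6 other ways of processing were a scaling to the 75th percentile, to the median of RefSeq probes or of probes well above background on all 8 arrays, quantile normalization, a normexp background correction, and the values of the series table. They moved the median difference of all probes tested by up to 0.97 in surviving minus sham, 1.01 in dying minus sham, −0.42 in sham minus naïve and −0.34 in surviving minus dying. Among the 7 genes, Hspa5 and Pdia4 kept a negative value in surviving minus sham under all 6, and Hspa5, Ddit3, Calr and Pdia4 did so in dying minus sham. Calr was positive in surviving minus sham under all 6, from 0.08 to 1.0.

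**Figure D3:**
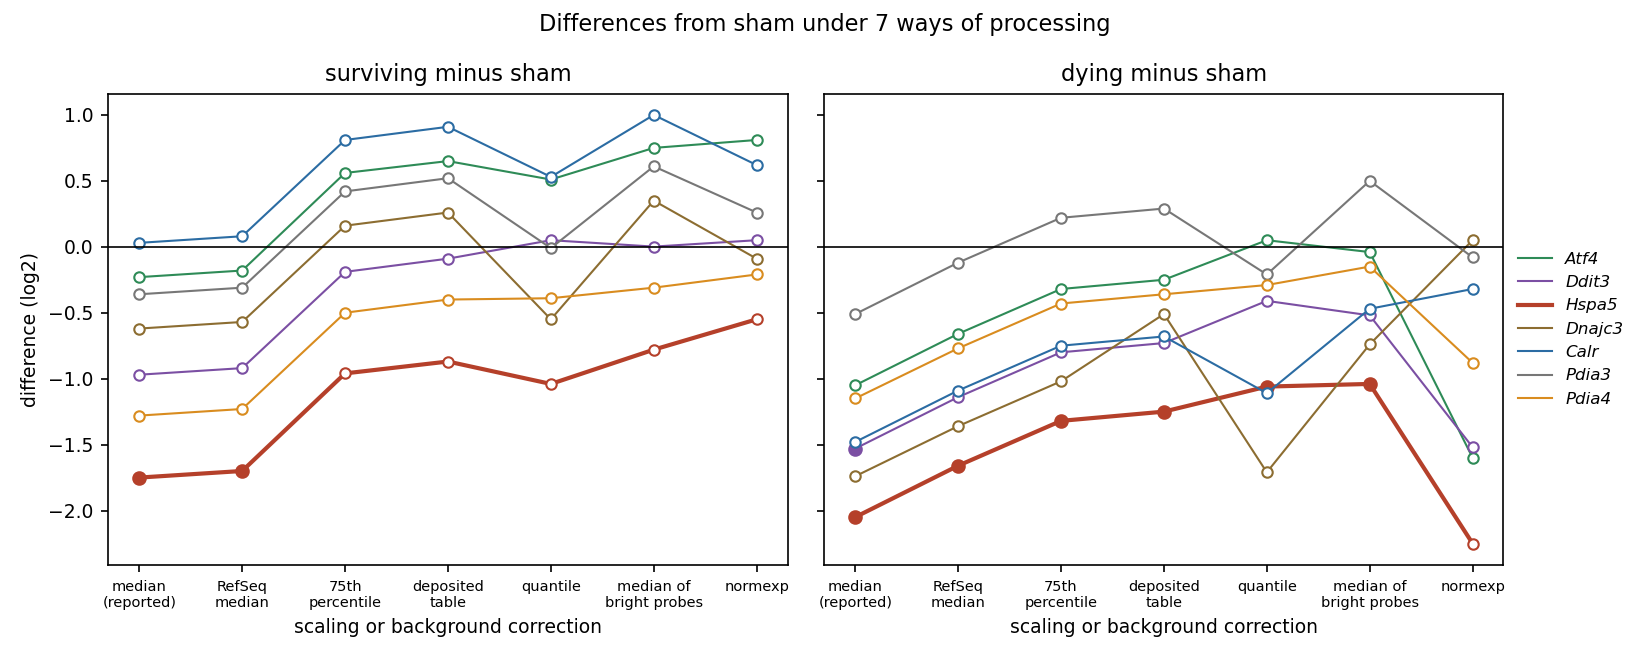
Differences from sham (log2, vertical axis) of the 7 tested genes under the median scaling reported here and under 6 other ways of processing (horizontal axis), with filled points for those past the threshold and lines joining the points of a gene. Hspa5, the thick line, stayed below 0 in both panels, from −1.75 to −0.55 on the left and from −2.25 to −1.04 on the right, while Atf4, Pdia3 and Dnajc3 crossed 0 in both.

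Other genes of the response were taken from 5 lists of 71 genes, of which 53 had a probe; the brightest probe stood for a gene. The counts that follow describe the lists and include genes at background in both sham pools that entered only through the injured pools, Ddit4 and Sil1 in surviving and Ddit4, Atf6 and Sec61a1 in dying minus sham; of these Ddit4 is among the 2 higher in both. Without them 6 of 41 and 20 of 42 passed. In dying minus sham, 45 were tested and 21 passed, 19 lower and 2 higher, which is 46.7% against 44.0% of all probes, with a median difference of −1.33; of all probes 29.0% passed as lower. For surviving minus sham, 43 were tested and 7 passed, 5 lower and 2 higher, which is 16.3% against 18.9% of all probes, with a median of −0.77. In surviving minus dying 46 were tested with a median of 0.51 and in sham minus naïve 41 with a median of 0.53; 0 passed in either, and 5 and 1 had an unadjusted p under 0.05 (limma), against 21.5% and 4.82% of all probes. These shares depended on the scaling: with the median of the probes that were bright on every array, 11 of 45 passed in dying minus sham against 47.6% of all probes, and with the 75th percentile 4 of 43 in surviving minus sham against 20.9%. The counts also depended on single pools, in fits for which the share of all probes is not given. In surviving minus sham all calls were lost without any 1 pool, and in dying minus sham far fewer genes passed without either sham pool.

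Among ER chaperones and folding enzymes, 14 were tested in dying minus sham and 7 passed, all lower, with a median of −1.62. Of all probes 44.0% passed in either direction and 29.0% as lower. Dnajb9, which encodes the BiP co-chaperone ERdj4, had signals of 3.40 and 3.27 for naïve, 4.32 and 3.84 for sham, 1.80 and 1.57 for surviving and 0.73 and 1.0 for dying pools. The 4 injured pools lay below the 4 uninjured pools, and Dnajb9 was 5.27-fold lower in surviving (difference −2.40, SE 0.43, adjusted p = 0.0133) and 9.28-fold lower in dying neurons (difference −3.21, SE 0.43, adjusted p = 0.00213) than in sham. Its sign was the same under the 6 other ways of processing, from −2.35 to −1.17 for surviving and from −2.83 to −1.87 for dying neurons. It passed in 13 of 18 fits for surviving and 18 of 19 for dying neurons, the reported fit included. The surviving call was lost when any 1 pool was left out. The second, dimmer probe of Dnajb9 gave −0.35 and 0.15 for these differences, so that the probes disagreed. Ero1a, the oxidase that recharges disulfide isomerases, was 4.27-fold lower in dying than in sham neurons (difference −2.09, adjusted p = 0.0191, past the threshold in 13 of 19 fits). Its dying pools were at 3.57 and 2.48 and its sham pools at 5.24 and 5.0, and the fold was 6.22 without dying pool 1 and 2.93 without dying pool 2 (adjusted p = 0.0565). The second probe of Ero1a gave −3.05 (adjusted p = 0.00344). In surviving minus sham this probe gave −2.31 and passed (limma, adjusted p = 0.0209), while the brightest gave −1.01 (adjusted p = 0.225). The second probe of Pdia6 also passed there (−1.64, adjusted p = 0.0457), unlike its brightest (−1.03, adjusted p = 0.176). Dnajb9 and Hsp90b1 were the 2 of 15 that passed in surviving minus sham, which is 13.3% against 18.9% of all probes. Hsp90b1, chosen here after its values were seen, encodes the ER chaperone GRP94 and differed by −1.60 (adjusted p = 0.0491, past the threshold in 5 of 18 fits), while its second probe gave 0.10.

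In the PERK and ATF4 list, 14 genes were tested against sham, Ddit4 among them. Atf3, a transcription factor induced by ATF4 and by other stress pathways, had signals of 0.50 and 0.57 for naïve, 2.41 and 0.37 for sham, 3.55 and 3.87 for surviving and 6.05 and 5.77 for dying pools. Dying and surviving pools do not overlap by the rule that picked the gene, and all 4 lay above the uninjured pools, of which sham pool 1 stood apart from the other 3. Atf3 was 4.98-fold higher in surviving (difference 2.32, SE 0.66, 95% confidence interval 0.79 to 3.84, adjusted p = 0.046) and 22.9-fold higher in dying neurons (difference 4.52, SE 0.65, 95% confidence interval 3.02 to 6.02, adjusted p = 0.00262) than in sham. Its sign was the same under the 6 other ways of processing, from 2.29 to 3.29 and from 2.88 to 5.52, while it passed in 10 of 18 fits for surviving and 18 of 19 for dying neurons. Without sham pool 1 the folds were 10.1 (adjusted p = 0.0603) and 46.3 (adjusted p = 0.0126), and without sham pool 2 they were 2.47 (adjusted p = 0.226) and 11.3 (adjusted p = 0.0205). Surviving minus dying was −2.20 and did not pass (95% confidence interval −3.73 to −0.67, adjusted p = 0.136).

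Asns and Eif2s1 of this list were lower in dying than in sham neurons, unlike Atf3. Asns, which encodes asparagine synthetase and is induced by ATF4, was at 7.48 and 6.92 for sham, 6.69 and 6.33 for surviving and 4.13 and 5.29 for dying pools. It was 5.6-fold lower in dying than in sham (difference −2.49, SE 0.56, adjusted p = 0.0105), with values from −2.48 to −1.32 under the 6 other ways of processing and 16 of 19 fits past the threshold. Eif2s1, which encodes eIF2alpha, was at 3.70 and 3.71 for sham, 3.71 and 2.18 for surviving and 0.58 and 1.14 for dying pools. It was 7.17-fold lower in dying than in sham (difference −2.84, SE 0.63, limma, adjusted p = 0.00976, past the threshold in 15 of 19 fits). In surviving minus dying, the comparison that picked the gene, Eif2s1 differed by 2.08 and did not pass (limma, adjusted p = 0.138). The paper lists Eif2s1 as higher in surviving than in dying neurons. Nupr1, a stress-induced transcriptional regulator, was at 1.14 and 4.87 for naïve, 3.03 and 3.40 for sham, 2.09 and 1.2 for surviving and 4.72 and 3.77 for dying pools, and no comparison passed the threshold. Without Ddit4, which was at background in both sham pools, 3 of 13 passed in surviving neurons against 18.9% of all probes, Atf3 higher and Cebpg and Eif2ak4 lower, and 6 of 13 in dying neurons against 44.0%, Atf3 higher and 5 lower. Cebpg and Eif2ak4 were chosen here after their values were seen. In surviving minus sham, Cebpg differed by −1.96 (adjusted p = 0.0359) and the eIF2alpha kinase gene Eif2ak4 by −1.70 (adjusted p = 0.0296), each past the threshold in 8 of 18 fits.

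Of the genes for ER-associated degradation 6 of 16 had a probe. In dying minus sham 4 of the 6 passed, all lower, and in surviving minus sham 0. Of all probes 44.0% passed in dying minus sham, 29.0% as lower, and 18.9% in surviving minus sham. Syvn1, the ubiquitin ligase HRD1, was 3.49-fold lower in dying than in sham neurons (difference −1.80, SE 0.49, adjusted p = 0.0203), which held in 11 of 19 fits. Its second probe did not agree, being well above background on both dying arrays and on neither sham array, so that no size is given for it. The conjugating enzyme gene Ube2g2 gave −0.32 (adjusted p = 0.593). Of the sensors and their proteases, Atf6b was 4.67-fold lower in dying than in sham neurons (difference −2.22, limma, adjusted p = 0.0191). It was the only 1 of 4 to pass, against 44.0% of all probes in either direction and 29.0% as lower. It passed in 11 of 19 fits. Of the 4, Atf6 entered only through the dying pools. The dying pools of Atf6b were at 0.76 and 2.44 and its sham pools at 4.03 and 3.62. The fold of Atf6b was 2.61 without dying pool 1, where the call was lost, and 8.35 without dying pool 2. In the list of death and calcium genes, 1 of 6 passed in surviving and 2 of 7 in dying minus sham, against 18.9% and 44.0% of all probes. Of the 7, Sec61a1 entered only through the dying pools. Atp2a2, taken up with its values known, differed by −1.63 in dying minus sham (limma, adjusted p = 0.0161), and its other probes gave −1.59 and −3.24. Itpr1, the calcium release channel of the ER, was 3.80-fold lower in surviving (difference −1.93, adjusted p = 0.0237) and 4.94-fold lower in dying neurons (difference −2.30, adjusted p = 0.00553) than in sham. These differences of Itpr1 passed in 9 of 18 and 17 of 19 fits. The second probe of Itpr1 did not agree either, being well above background on both surviving arrays and on neither sham array. Tmbim6, which encodes the ER membrane protein BAX inhibitor 1, gave −0.13 and −0.65, and neither passed.

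**Figure D4:**
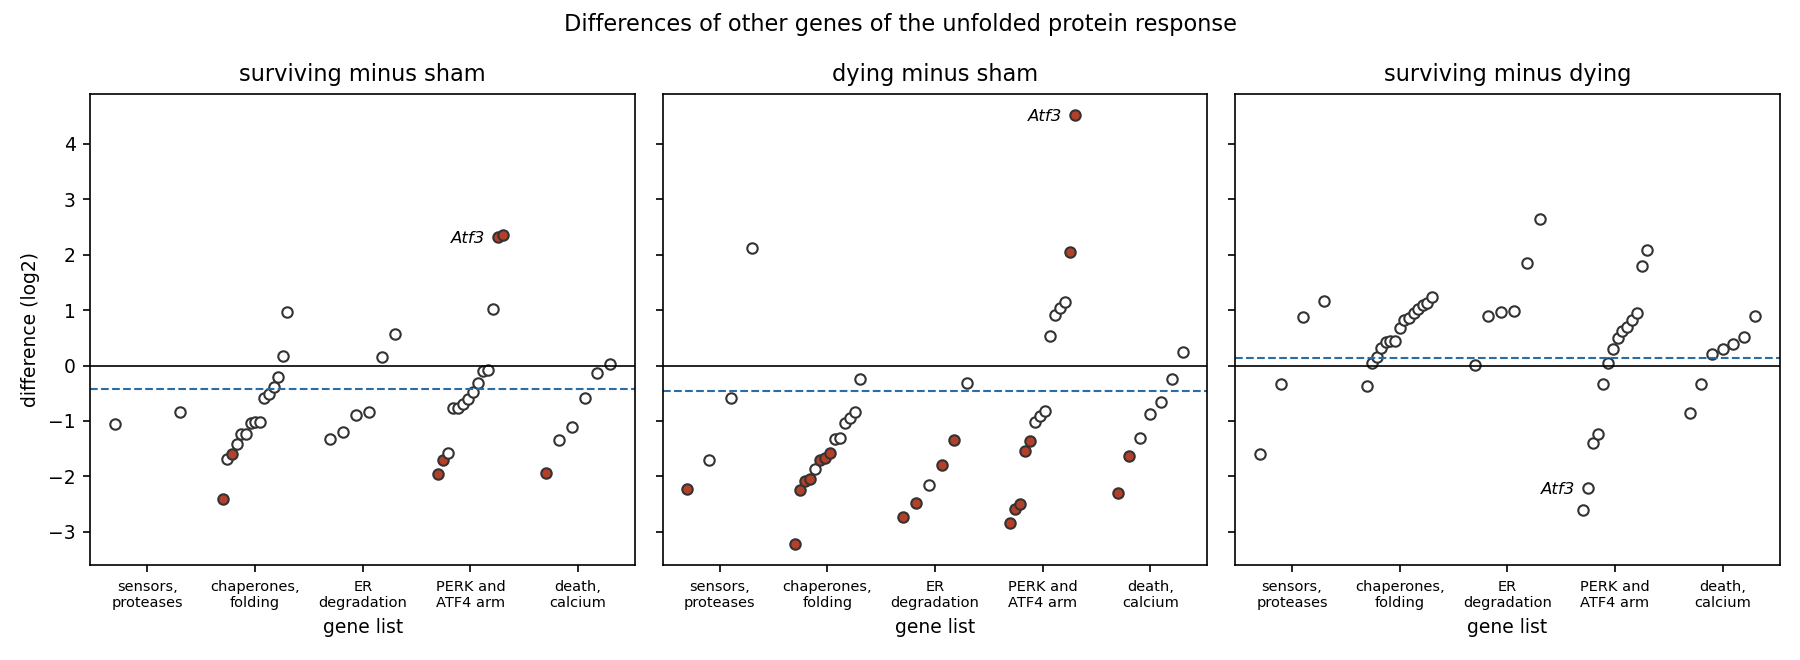
Differences (log2, vertical axis) of the tested genes of the 5 lists in 3 comparisons, ordered by value within a list; red points passed the threshold, and the dashed line is the median difference of all probes tested (−0.43, −0.46 and 0.14). Atf3 stands at 2.32, 4.52 and −2.20, and 19 of the 45 genes in the middle panel are red below 0.

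Known sequence elements were searched in the promoters of the genes. The ER stress response element, the sequence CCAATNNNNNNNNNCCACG, is known to be bound by NF-Y together with ATF6 or XBP1. Exact matches of it were searched on both strands of the RefSeq promoters, 250 bases before to 50 after the start, of build GRCr8. A promoter was found for 8 of the 9 genes, all but Pdia3. It held the element in 5 of the 8, Hspa5, Dnajc3, Calr, Canx and Xbp1, against 22 of all 33469 promoters (0.0657%), and in 4 of 62 promoters of the list genes, Hsp90b1, Creld2, Derl3 and Ero1b. The sequence TGATGNAA, the core of an element bound by ATF4, was in 0 of the 8, in 5 of the 62, Chac1, Herpud1, Nupr1, Ppp1r15b and Trib3, and in 3.98% of all promoters. Of the 9 genes, 3 both hold the element and were tested, and their promoters are shown for its position, with the element in capitals.
Hspa5 (chr3:38452766-38453065, + strand): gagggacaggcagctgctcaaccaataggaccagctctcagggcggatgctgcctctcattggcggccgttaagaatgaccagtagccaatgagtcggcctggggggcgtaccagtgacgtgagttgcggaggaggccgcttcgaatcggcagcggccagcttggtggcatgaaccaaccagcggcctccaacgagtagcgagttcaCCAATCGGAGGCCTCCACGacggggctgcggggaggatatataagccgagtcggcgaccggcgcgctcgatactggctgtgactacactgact
Dnajc3 (chr15:102432417-102432716, + strand): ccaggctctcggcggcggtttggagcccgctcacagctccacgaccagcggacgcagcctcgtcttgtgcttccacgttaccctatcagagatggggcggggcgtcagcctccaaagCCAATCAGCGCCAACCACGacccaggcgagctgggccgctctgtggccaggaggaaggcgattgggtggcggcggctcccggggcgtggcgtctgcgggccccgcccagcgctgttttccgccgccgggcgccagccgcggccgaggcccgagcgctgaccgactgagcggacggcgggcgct
Calr (chr19:40213117-40213416, + strand): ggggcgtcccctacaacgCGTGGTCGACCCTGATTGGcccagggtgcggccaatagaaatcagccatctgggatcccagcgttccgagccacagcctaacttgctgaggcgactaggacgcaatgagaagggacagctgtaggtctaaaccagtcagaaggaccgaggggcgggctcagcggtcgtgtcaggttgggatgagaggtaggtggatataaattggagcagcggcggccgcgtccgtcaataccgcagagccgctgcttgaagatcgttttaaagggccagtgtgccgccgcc

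Counted from the start, the element lies at −43 to −25 in Hspa5, at −133 to −115 in Dnajc3 and, on the opposite strand, at −232 to −214 in Calr. The 3 genes with these promoters differed from sham by −1.75, −0.62 and 0.03 in surviving and by −2.05, −1.74 and −1.48 in dying neurons, in the order Hspa5, Dnajc3 and Calr. The −1.74 of Dnajc3 rested on dying pool 1, which was at background, and was −0.08 without it. Ddit3, Atf4 and Pdia4, whose promoters do not hold these exact letters, differed by −0.97, −0.23 and −1.28 in surviving and by −1.53, −1.05 and −1.15 in dying neurons. The Ddit3 promoter holds cgtgccgctttctgattgg, which is 1 base from the letters on the opposite strand. Variants of the element were not searched for, so these genes cannot be taken as free of it. Of the list genes with the element, Hsp90b1 and Creld2, taken up for their promoters with their values known, were tested and differed by −1.60 and −0.58 in surviving and by −2.05 and −1.04 in dying neurons, while the second probe of Hsp90b1 gave 0.10 and 0.30. The genes with and without an exact match were not tested against each other.

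Markers of cell types were read on the same arrays, since a pool of captured cells can hold material of their neighbours. Of 11 markers of pyramidal neurons 7 had a probe, and all 7 were well above background on 7 arrays and 6 of them in dying pool 1. Their summed scaled signal was 5710 and 8110 for naïve, 10700 and 9340 for sham, 5980 and 5850 for surviving and 3060 and 3250 for dying pools. The brightest, Nrgn, was at 13.07 and 12.92 for sham, 12.37 and 12.43 for surviving and 11.53 and 11.51 for dying pools. Sums of this kind follow their brightest probes. This one was carried by Nrgn. Snap25 was likewise highest in sham, at 10.99 and 10.49 for sham, 8.89 and 7.25 for surviving and 6.2 and 7.63 for dying pools, while other markers had another order. Neurod2 was at 5.0 and 5.9 for sham, 7.04 and 6.53 for surviving and 3.93 and 6.14 for dying pools, and Grik4 at 4.83 and 4.79, 5.25 and 5.0, and −1.07 and 4.97. Grik4 was not well above background in dying pool 1.

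Of 10 markers of microglia and macrophages 9 had a probe. Their summed scaled signal was 127 and 253 for naïve, 264 and 242 for sham, 307 and 339 for surviving and 1950 and 1060 for dying pools, and C1qb, the brightest in both dying pools, was at 9.82 and 8.78 there and between 4.98 and 7.03 in the others. C1qa, the brightest in 5 of the other pools, was at 8.88 and 8.55 in the dying pools and between 5.86 and 6.99 in the others. Both dying pools lay above the 6 others for 4 of the 9 genes, C1qa, C1qb, Cd68 and Tyrobp, as they did for Atf3. They did not for the rest, such as Aif1, at 5.0 and 5.05 for sham and 5.14 and 4.64 for dying pools. The same pattern held for 2 of the 5 endothelial markers, Vwf and Flt1, of which Flt1 was well above background on 4 arrays only. The share of all probes with this pattern is not given, so these counts cannot be set against the array. The 7 astrocyte markers with a probe summed to 1490 and 1000 for sham, 591 and 604 for surviving and 1040 and 523 for dying pools, with Slc1a3 brightest, while Gfap was at 1.75 and 1.58, 3.57 and 2.73, and 1.1 and 3.62 in these pools. The 4 oligodendrocyte markers, led by Mog, summed to 219 and 289 for sham, 56.0 and 61.5 for surviving and 176 and 70.0 for dying pools. The 5 endothelial markers, led by Vwf and with Tek on 0 arrays, summed to 44.8 and 34.0, 43.1 and 36.5, and 155 and 87.4 in the same groups, and the 6 interneuron markers to 416 and 394, 164 and 147, and 676 and 159. In dying pool 1, Sst was at 8.5 and Vip at 7.85, and in dying pool 2 they were at 4.68 and 5.55. In the sham pools, Sst was at 6.71 and 5.61 and Vip at 6.73 and 7.25. Pvalb, Slc32a1 and Gad1 lay lower in both dying than in both sham pools. Pvalb was at 7.42 and 7.31 for sham and 5.85 and 6.06 for dying pools, and Slc32a1 at 5.04 and 5.01, and 4.69 and 4.15. Gad1 was at 0.19 in both sham pools and at −2.5 and −2.81 in the dying pools, where it was at background. Gad2 went the other way, at −2.6 and −1.32 for sham, where it was at background, and −0.56 and 0.46 for dying pools. No size is given for these differences of Gad1 and Gad2. The part of these cell types in the differences of Hspa5, Ddit3, Atf3 and the other genes was not tested.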

How the data were processed

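RNA of laser-captured CA3 neurons was measured on 8 arrays, 2 per group. The authors deposited for each spot a processed signal, an intensity from which Agilent Feature Extraction 9.1.3.1 had subtracted background and spatial trends, with mean and background intensities. Yes or no marks said whether a spot was non-uniform, saturated or well over background. The signal values of the series table, also deposited by the authors, equalled the processed signal over 1 constant per array, after the lowest signals (under about 5) had been raised to a floor. Among probes with a signal over 100, the ratio lay over 1% from its median for 0 to 12 probes on an array, and 0 of these had only 1 spot. Surviving and dying arrays had 1 extraction protocol, sham and naïve arrays another. The methods name MessageAMP II for amplification, and the sample descriptions either that kit or RiboAmp HS; which pool had which is not given in the sources used here.

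Non-uniform spots were left out (6 to 734 on an array), the spots of each of the 41012 probes were averaged, each signal was taken relative to its array median, which the methods also did, values under 0.01 were set to 0.01 and log2 was taken. Probes well above background numbered 22449 and 22391 for naïve, 20911 and 20193 for sham, 29347 and 27081 for surviving and 24064 and 27997 for dying pools. With limma 3.58.1 in R 4.3.3, all 8 arrays entered 1 linear model with a mean for each of the 4 groups. A probe was tested, two-sided, if 1 or both of the groups compared had it well above background on their 2 arrays. The Benjamini-Hochberg adjustment ran over all probes tested in a comparison, with a threshold of 0.05. Where a probe was at background on both arrays of a group, its fold is a lower bound, taken against the faintest probe that an array marked as well above background, or against its own signal if that was higher. The number of arrays, 2 per group, limits the precision.

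The genes, the lists and the markers were chosen with earlier results of these data known. All 9 genes are named. Of each list, genes past the threshold in surviving minus dying would be named, at most 2 in each direction, or, as none passed, those with the smallest p, at most 2 in each direction, among genes well above background on all 4 arrays whose groups do not overlap. The alternatives were the scalings and background correction named in the results, non-uniform spots kept, a floor of 0.05, no filter on dim probes, a filter on all 4 arrays, only the 4 arrays compared, limma with a trended and robust spread, a replicate block, and each pool left out in turn, where a lone pool is assumed to vary like the others. Promoters come from RefSeq. Python 3.11.15 and matplotlib 3.10.9 were used for tables and figures.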

Additional observations from a re-analysis of the deposited data

How the results depend on the processing

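Of 487 differences of single genes recomputed under an alternative, 413 kept their sign and their side of the threshold, 45 changed sign, 21 lost the call and 8 gained it. Another floor, another filter, only the 4 arrays compared, a trended and robust spread and a replicate block left the estimates of these genes as reported. In such fits the sign could not change. The 413, and the counts of fits past the threshold in the results, are therefore no measure of independent agreement. In the values given next, the cause was not tested. In surviving minus sham, the count of the 7 genes past the threshold, 1 as reported, was 0 with the 75th percentile, quantile normalization, the median of bright probes, normexp and the deposited values, and 2 with only the 4 arrays compared. The count of list genes, 7 as reported, was 4, 3, 0 and 4 with the 75th percentile, quantile normalization, normexp and the deposited values, 16 with only the 4 arrays compared and 11 with the trended and robust spread. The share of all probes past the threshold, 18.9% as reported, was 20.9%, 13.8%, 0% and 21.7% in the first 4 of these and 23.8% with the median of bright probes. It is not given for the fits with 16 and 11 list genes, so these counts cannot be set against the array. In dying minus sham, the count of the 7 genes, 2 as reported, was 1 with the 75th percentile, quantile normalization, the median of bright or of RefSeq probes, the deposited values and only the 4 arrays compared, 0 with normexp and 4 with the filter on all 4 arrays, and the count of list genes, 21 as reported, was 11, 7, 11, 0 and 10 with the 75th percentile, quantile normalization, the median of bright probes, normexp and the deposited values. The share of all probes, 44.0% as reported, was 46.1%, 36.1%, 47.6%, 0% and 45.6% in these, and 41.9% with the median of RefSeq probes. It is not given for only the 4 arrays compared or for the filter on all 4 arrays.

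Deviations of surviving and dying pools of the same number correlated at r = −0.195 and those of other groups at −0.0608 to 0.0716 over 15254 probes. With 2 pools per group, these values cannot show whether pools were paired. Surviving neurons were taken next to dying ones. Whether their pools shared rats is not given in the sources used here, and the reported fit treats them as independent. With the replicate block, surviving minus sham gave 0 of the 7 genes and 3 list genes, dying minus sham 2 and 19, and the other comparisons 0. With surviving and dying pools paired crosswise, an alternative chosen after seeing the data, surviving minus dying gave 0 and 0 and dying minus sham 2 and 19. For fits with 1 pool left out, the share of all probes is not given. The counts of those fits, which follow, cannot be set against the array. With 1 pool left out, the 7 genes gave 0 to 1 call in surviving minus dying, 0 in surviving minus sham, 0 to 5 in dying minus sham and 0 in sham minus naïve, and the list genes 0 to 7, 0, 2 to 24 and 0; the 7 came without dying pool 2.

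Differences that changed sign were the following. In surviving minus dying, Hspa5 was −0.04 and Pdia3 −0.19 with the median of RefSeq probes, and Pdia4 was 0.67 and Dnajc3 −0.14 with normexp. For surviving minus sham, the values with the 75th percentile were 0.56 for Atf4, 0.42 for Pdia3 and 0.16 for Dnajc3, with quantile normalization 0.05 for Ddit3 and 0.51 for Atf4, and with the median of bright probes 0.00147 for Ddit3, 0.75 for Atf4, 0.61 for Pdia3 and 0.35 for Dnajc3. With normexp they were 0.05 for Ddit3, 0.81 for Atf4 and 0.26 for Pdia3, and with the deposited values 0.65 for Atf4, 0.52 for Pdia3 and 0.26 for Dnajc3. In dying minus sham, Atf4 was 0.05 with quantile normalization, Dnajc3 0.05 with normexp, and Pdia3 0.22 with the 75th percentile, 0.50 with the median of bright probes and 0.29 with the deposited values. In sham minus naïve, Ddit3 was −0.07 with quantile normalization and −0.05 with the median of bright probes. Calr was −0.19 with the 75th percentile, −0.05 with quantile normalization, −0.32 with the median of bright probes, −0.06 with that of RefSeq probes and −0.22 with the deposited values, and Pdia3 was −0.07 with the 75th percentile, −0.20 with the median of bright probes and −0.11 with the deposited values.

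With 1 pool left out, Pdia3 ranged from −0.29 to 0.58 and Pdia4 from −0.28 to 0.03 in surviving minus dying, where Dnajc3 was −0.54 without dying pool 1 and 0.27 and 1.98 without surviving pools 1 and 2. Against sham, surviving neurons had Calr from −0.36 to 0.42, Pdia3 from −0.80 to 0.07 and Dnajc3 from −1.47 to 0.23, and in sham minus naïve, Calr from −0.12 to 0.32 and Pdia3 from −0.46 to 0.90. For dying minus sham, Atf4 ranged from −1.59 to −0.50 and Calr from −2.08 to −0.88. Without dying pool 2, the fit gave Dnajc3 as 2.78 in surviving minus dying, which is set against a pool at background and is not a measured size. Since each gene has 1 probe, averaging the probes of a gene changed no level. Dim signals limit Dnajc3 and Canx, which were well above background on 6 and 0 arrays.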
